A study of Mus musculus with 10 samples.

Results

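Cell cycle and proliferation genes were followed in regulatory T cells (Tregs), the Foxp3-expressing CD4 T cells that hold immune responses in check. The set holds 44 of the 27179 genes counted, chosen by symbol from textbook roles, with earlier results of these data known. The rule used no measured value. It has cyclins and their kinases, kinase inhibitors, cycle transcription factors, DNA replication genes and mitosis genes. Tregs (CD4+ TCRb+ YFP+) were sorted from C57BL/6 mice in 4 groups: Maf-KO gut (2 libraries), WT gut (2), Maf-KO spleen (3) and WT spleen (3). In Maf-KO mice (Maffl/fl x Foxp3Cre-YFP) the floxed Maf gene, which encodes the transcription factor c-Maf, is deleted by a Cre under Foxp3 control. WT mice carry Foxp3Cre-YFP alone, so all 4 groups express Cre and the YFP reporter in Foxp3-expressing cells. The labels state neither age nor sex.

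Cyclins activate cyclin-dependent kinases (CDKs) in sequence. D cyclins with Cdk4 and Cdk6, then E cyclins with Cdk2, phosphorylate the Rb proteins and release E2F factors, which switch on DNA replication genes. Cyclin A and B with Cdk1 then drive mitosis, whose genes are switched on late in the cycle by the MuvB complex with B-Myb and Foxm1. Inhibitors of the Cip/Kip family (Cdkn1a, Cdkn1b) and the INK4 family (Cdkn2c, Cdkn2d) restrain the kinases. Tregs in tissues divide in response to antigen and IL-2, and resting T cells keep this machinery low.

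The deletion was seen in every library. Maf had 2 to 10 counts in the 5 Maf-KO libraries and 312 to 918 counts in the 5 WT libraries. Library totals were 8567035 to 13983965 counts, and a floor of 3 counts is 0.215 to 0.35 CPM (a count over its library total, scaled up), for counting error only. All 44 genes passed the filter on low counts, and together they took 0.248 to 0.359% of the counts of a library. Foxp3, Cd4 and Cd3e were detected in all 10 libraries. Levels below are CPM scaled with TMM factors, a correction for the make-up of each library. In bulk RNA, fewer cells of a type and less RNA per cell cannot be told apart.

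The libraries that the labels number replicate 3 stood apart for these genes. Each of the 4 groups has 1 such library, and in 28 of the 44 genes (63.6%) it was the lowest library of its group in all 4 groups. Over all 13214 genes tested, 414 (3.13%) had that pattern. It held for 16 of the 17 genes of the mitotic roles, which are the S/G2 and mitotic cyclins with Cdk1, the mitotic kinases and checkpoint genes, the anaphase ubiquitin ligase partners and the kinetochore and spindle genes. Cenpa was the exception. The summed level of these 17 genes was 330 CPM in Maf-KO gut replicate 3 and 462 CPM in the other Maf-KO gut library. In WT gut it was 279 CPM in replicate 3 and 581 CPM in the other library. Spleen sums were 242 CPM in replicate 3 against 480 and 534 CPM in Maf-KO, and 239 CPM against 524 and 511 CPM in WT. In each of the 4 groups, replicate 3 was thus the library with the lowest mitotic sum. A gut group has 2 libraries, so 1 of them is always the lower. Within a genotype, the replicate 3 libraries of gut and spleen share a title number, so the 4 groups may not be separate results. The pattern was noticed in the data and is given without a test.

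**Figure D1:**
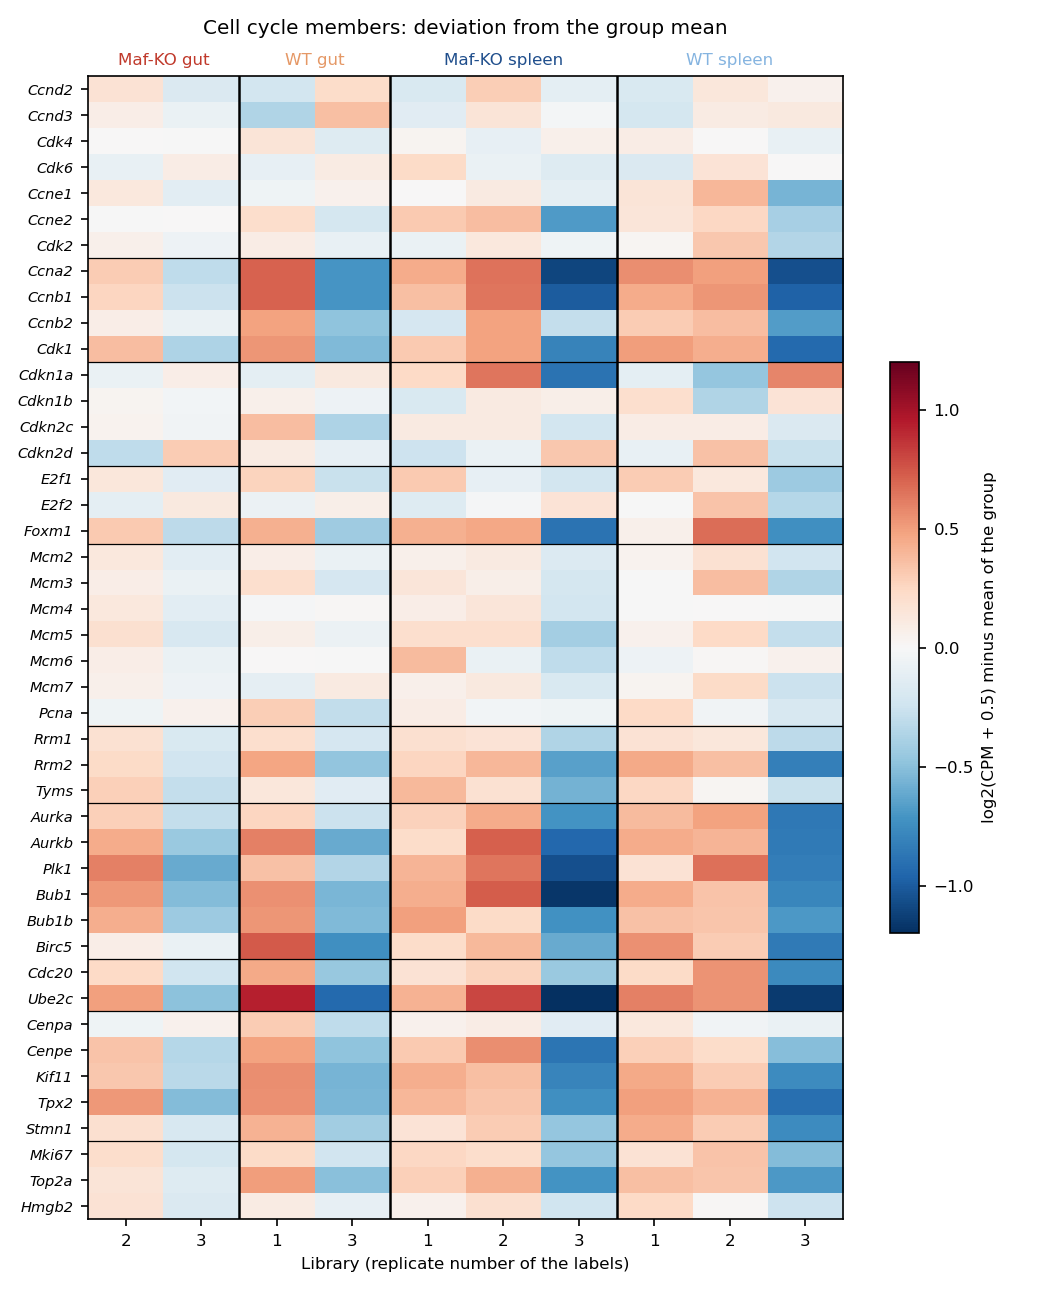
Each cell gives the log2(CPM + 0.5) of 1 gene in 1 library minus the mean of that library's group (rows, 44 genes by role, from G1 cyclins at the top to chromatin genes at the bottom; columns, 10 libraries by group and replicate number). Blue is below and red above the group mean. The columns of replicate 3 are blue through the mitotic cyclins, kinases and spindle genes in all 4 groups, except for Cenpa in Maf-KO gut, and mixed among the G1 cyclins and CDK inhibitors.

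Mki67 encodes Ki-67, which coats mitotic chromosomes, and Top2a the topoisomerase that untangles replicated DNA. The Mki67 levels were 101 and 75.2 CPM in Maf-KO gut, 101 and 73.0 CPM in WT gut, 101, 98.3 and 61.7 CPM in Maf-KO spleen and 87.5, 98.7 and 54.1 CPM in WT spleen. For Top2a the values were 115 and 93.0 CPM in Maf-KO gut and 149 and 74.0 CPM in WT gut, with 107, 117 and 53.04 CPM in Maf-KO spleen and 114, 112 and 55.2 CPM in WT spleen. In both genes replicate 3 was the lowest library of every group, and the groups overlapped. Cdk1 encodes the kinase that drives entry into mitosis, and Plk1 a kinase of spindle assembly. Cdk1 was at 18.2 and 10.7 CPM in Maf-KO gut and 25.6 and 12.1 CPM in WT gut, and at 19.6, 22.0 and 8.77 CPM in Maf-KO spleen and 23.0, 22.0 and 8.17 CPM in WT spleen. The Plk1 levels were 12.6 and 5.19 CPM in Maf-KO gut, 14.5 and 8.64 CPM in WT gut, 21.9, 25.9 and 7.60 CPM in Maf-KO spleen and 17.1, 24.2 and 8.26 CPM in WT spleen. Replicate 3 again lay below the other libraries of its group. Birc5 encodes survivin, a subunit of the chromosomal passenger complex, and Stmn1 the microtubule-destabilising protein stathmin. For Birc5 the values were 21.5 and 19.2 CPM in Maf-KO gut and 33.6 and 11.7 CPM in WT gut, with 24.3, 27.3 and 13.5 CPM in Maf-KO spleen and 34.0, 28.7 and 12.6 CPM in WT spleen. Stmn1 was at 22.6 and 17.3 CPM in Maf-KO gut and 26.8 and 14.8 CPM in WT gut, and at 22.6, 25.0 and 14.4 CPM in Maf-KO spleen and 32.0, 29.0 and 13.7 CPM in WT spleen. Some of the 44 genes, Ccnb1 and Tyms (pseudogenes) among them, have near copies in the count table, so reads could be split between copies and the levels of such genes are uncertain to that extent.

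Of the mitotic genes, Ube2c, the ubiquitin-conjugating enzyme of the anaphase-promoting complex, had the lowest replicate 3 values relative to its groups, by the mean over the 4 groups. The log2 ratio of replicate 3 to the mean of the other libraries of its group was -0.99 in Maf-KO gut, -1.87 in WT gut, -1.84 in Maf-KO spleen and -1.73 in WT spleen. Over the 17 mitotic genes the median ratio was -0.64 in Maf-KO gut, -1.06 in WT gut, -1.19 in Maf-KO spleen and -1.27 in WT spleen. It was nearest to 0 in Maf-KO gut, where the only other library was replicate 2.

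Genes outside the mitotic roles followed the pattern in part. Foxm1, which drives mitotic gene expression, and Rrm2, a subunit of the enzyme that makes deoxynucleotides, had their lowest value in replicate 3 of every group. The Foxm1 levels were 15.9 and 10.1 CPM in Maf-KO gut, 12.3 and 6.63 CPM in WT gut, 16.7, 17.2 and 6.43 CPM in Maf-KO spleen and 11.2, 17.4 and 6.27 CPM in WT spleen. For Rrm2 the values were 55.1 and 39.9 CPM in Maf-KO gut and 69.5 and 35.9 CPM in WT gut, with 60.0, 66.0 and 31.7 CPM in Maf-KO spleen and 65.9, 61.9 and 27.0 CPM in WT spleen. Mcm5, a subunit of the replicative helicase, also did so, by smaller ratios. Mcm5 was at 150.1 and 114 CPM in Maf-KO gut and 111 and 100.1 CPM in WT gut, and at 123, 123 and 80.8 CPM in Maf-KO spleen and 108, 122 and 85.1 CPM in WT spleen. Pcna, the sliding clamp of DNA polymerases, did not, because in Maf-KO gut replicate 3 was the higher library. The Pcna levels were 77.5 and 83.5 CPM in Maf-KO gut, 109 and 72.6 CPM in WT gut, 62.1, 56.8 and 56.1 CPM in Maf-KO spleen and 75.3, 62.1 and 55.6 CPM in WT spleen. Of the 7 helicase and clamp genes, 3 had the pattern (Mcm2, Mcm3 and Mcm5), as did all 3 deoxynucleotide genes (Rrm1, Rrm2 and Tyms).

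None of the 7 G1 and S cyclins and kinases had replicate 3 lowest in all 4 groups. For Ccnd2 the values were 519 and 411 CPM in Maf-KO gut and 317 and 431 CPM in WT gut, with 506, 705 and 527 CPM in Maf-KO spleen and 447, 558 and 524 CPM in WT spleen. Ccnd3 was at 129 and 115 CPM in Maf-KO gut and 91.9 and 151 CPM in WT gut, and at 149.7, 183 and 162 CPM in Maf-KO spleen and 146, 181 and 184 CPM in WT spleen. The Cdk4 levels were 133 and 133 CPM in Maf-KO gut, 139 and 112 CPM in WT gut, 150.1, 138 and 154 CPM in Maf-KO spleen and 167, 158 and 148 CPM in WT spleen. In WT gut, replicate 3 held the higher value of these D-type cyclins and the lower value of Cdk4. For Cdk6 the values were 16.5 and 18.8 CPM in Maf-KO gut and 19.4 and 22.3 CPM in WT gut, with 14.4, 11.6 and 10.9 CPM in Maf-KO spleen and 12.6, 16.0 and 14.3 CPM in WT spleen. Ccne1 was at 10.7 and 8.87 CPM in Maf-KO gut and 7.17 and 7.69 CPM in WT gut, and at 11.4, 12.2 and 10.4 CPM in Maf-KO spleen and 13.3, 15.7 and 7.88 CPM in WT spleen. Cdk6 in gut and Ccne1 in WT gut were higher in replicate 3. In 3 of the 4 groups, replicate 3 was the lowest library for Ccne1, Ccne2, Cdk2 and Cdk4, and in 1 group for Ccnd2, Ccnd3 and Cdk6.

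**Figure D2:**
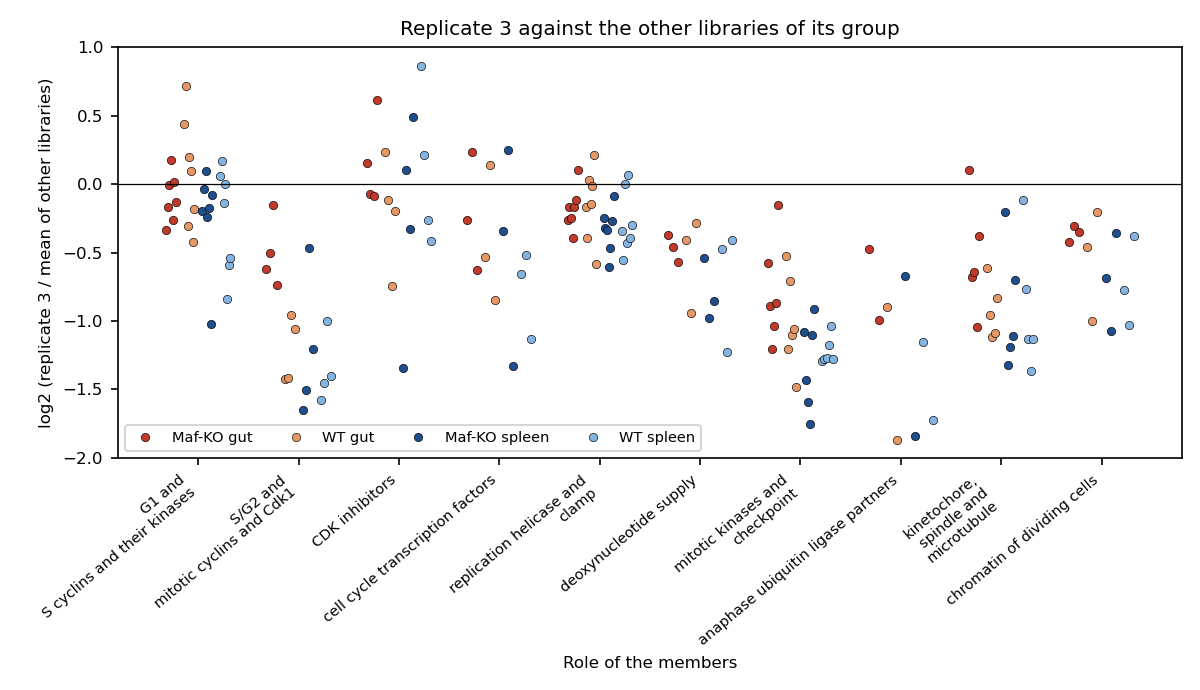
Each point is 1 gene in 1 group; the y axis gives the log2 ratio of replicate 3 to the mean of the other libraries of that group, and the x axis the 10 roles. G1 and S cyclins and CDK inhibitors lie on both sides of 0, while the mitotic roles lie below it, down to -1.87 for Ube2c in WT gut, with Cenpa in Maf-KO gut (0.10) as the only point of those roles above 0.

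Lists of genes outside the set differed in how often they had the pattern. Of 48 other mitosis genes, 40 (83.3%) had replicate 3 lowest in all 4 groups, and of 38 genes of replication licensing and DNA synthesis 20 (52.6%) did. It held for 7 of 20 other cyclins, CDKs and regulators (35%) and 3 of 17 Rb, E2F, MuvB, Myb and Myc genes (17.6%). None of 10 quiescence-associated genes of T cells did. No gene in any of the 9 lists of cell type markers did, among them lists for B cells, plasma cells and myeloid cells. Over all genes tested 3.13% did, so 0 in lists this short does not set them apart from other genes. In single groups some of the marker genes were lower in replicate 3. The median log2 ratio of the 5 plasma cell genes was -1.59 in Maf-KO gut and -1.49 in WT gut. It was -0.20 in Maf-KO spleen and 0.14 in WT spleen. The median of the 6 B cell genes was -0.98 in Maf-KO gut and -1.28 in Maf-KO spleen, against 0.43 in WT gut and 0.35 in WT spleen. Their part in the pattern was not tested. The 4 replicate 3 libraries held 9538182 to 13983965 counts and the other 6 held 8567035 to 12909265, so totals overlapped. By their titles the 4 libraries carry 2 numbers, 1 for each genotype, shared by gut and spleen. What the number stands for is not stated, and its part in the pattern was not tested. Leaving out the 4 libraries left 0 of the 44 genes called in both genotype comparisons, 4 between tissues in Maf-KO and 7 in WT, with 2 residual degrees of freedom.

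Promoter sequence is shown for 5 mitotic genes that were low together in replicate 3, and for Mcm6, a replication gene that was not lowest there in all 4 groups. RefSeq promoter windows (GRCm38.p6, 250 bases before to 50 after the start) were matched for 36 of the 44 genes. In mitotic promoters the letters CCAAT are known as the binding motif of NF-Y, and TTTGAA as a form of the cell cycle homology region bound by MuvB. Searched on both strands, CCAAT was in the windows of 29 of 36 genes (80.6%), against 41.1% of 27025 genes. These were 12 of 13 mitotic genes, 6 of 6 replication genes and 11 of 17 others. TTTGAA was in 14 of 36 (38.9%), against 20.2% of all genes. They were 9 of 13 mitotic genes, 1 of 6 replication genes and 4 of 17 others. The E2F letters TTTGGCGC, TTTCCCGC, TTTCGCGC or TTTGCCGC were in 7 of 36 (19.4%), against 2.60% of all. Among the 7 were 1 of 13 mitotic genes, 4 of 6 replication genes and 2 of 17 others. The 4 replication genes were Mcm3, Mcm5, Mcm6 and Mcm7. Of these, Mcm3 and Mcm5 were lowest in replicate 3 in all 4 groups, and Mcm6 and Mcm7 were not. The part of any of these letters in the replicate 3 pattern was not tested. A match of letters is a description and not a binding site. The 120 bases before the start of 5 mitotic genes follow, 5′ to 3′ on the gene's strand, with CCAAT or TTTGAA on either strand in capitals.
Ccnb2 (chr9:70421555-70421674, minus strand): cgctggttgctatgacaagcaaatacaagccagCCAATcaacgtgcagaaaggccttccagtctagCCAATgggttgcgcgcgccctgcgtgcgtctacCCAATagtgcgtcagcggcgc
Plk1 (chr7:122159315-122159434, plus strand): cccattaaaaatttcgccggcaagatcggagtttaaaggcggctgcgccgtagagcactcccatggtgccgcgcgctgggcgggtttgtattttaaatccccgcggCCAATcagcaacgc
Cdc20 (chr4:118437344-118437463, minus strand): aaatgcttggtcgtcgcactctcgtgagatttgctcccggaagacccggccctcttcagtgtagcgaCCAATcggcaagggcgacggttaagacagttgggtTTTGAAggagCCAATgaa
Ube2c (chr2:164769809-164769928, plus strand): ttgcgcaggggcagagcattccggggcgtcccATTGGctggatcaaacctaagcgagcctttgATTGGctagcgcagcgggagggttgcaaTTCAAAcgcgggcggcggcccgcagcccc
Cdk1 (chr10:69352913-69353032, minus strand): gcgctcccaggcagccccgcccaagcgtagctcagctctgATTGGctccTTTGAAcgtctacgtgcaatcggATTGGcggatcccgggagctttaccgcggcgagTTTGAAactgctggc
The same stretch of Mcm6 has the E2F letters in capitals, with 2 overlapping matches in the first run of capitals.
Mcm6 (chr1:128359706-128359825, minus strand): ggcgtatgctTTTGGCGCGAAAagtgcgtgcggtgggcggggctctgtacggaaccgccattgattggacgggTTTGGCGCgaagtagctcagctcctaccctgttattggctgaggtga
Ccnb2 holds 3 CCAAT matches in these bases, and Cdc20, Ube2c and Cdk1 hold 2 each. Plk1 holds 1. Mcm6 holds 3 E2F matches and, not marked, 2 CCAAT matches.

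Per length, the helicase subunit Mcm6, Cdk4 and Ccnd2 were the most abundant of the set and Ccne2, Cenpe and Foxm1 the least, by the mean log2 FPKM over the 10 libraries. Mcm6 averaged 7.01 (SD 0.12) in Maf-KO gut, 6.81 (SD 0.06) in WT gut, 6.99 (SD 0.35) in Maf-KO spleen and 6.92 (SD 0.02) in WT spleen on the log2 FPKM scale. Mki67 averaged 3.005 (SD 0.31) log2 FPKM in Maf-KO gut, 3.01 (SD 0.38) in WT gut, 3.22 (SD 0.40) in Maf-KO spleen and 3.10 (SD 0.47) in WT spleen. The 4 Mki67 means lay within 1 SD of each other. Cdkn1a had the widest range over groups, with means of 5.96 (SD 0.10) and 6.19 (SD 0.12) log2 FPKM in Maf-KO gut and WT gut, against 0.75 (SD 0.94) and 0.60 (SD 0.62) in Maf-KO spleen and WT spleen.

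The first comparison asks whether loss of c-Maf changed the cycle genes of gut Tregs. No cycle gene passed the test in gut. By edgeR's quasi-likelihood test, 0 of 44 were called at an adjusted p under 0.05, where 0.151% of all genes were called (0.0151% higher, 0.136% lower), and 3 had an unadjusted p under 0.05, as had 8.14% of all genes. The median log2 fold change of the 44 was -0.05, and that of all genes was -0.00. The median of the 44 turned on single gut libraries, at -0.18 when Maf-KO gut replicate 2 was left out and 0.12 when replicate 3 was. It was 0.34 when WT gut replicate 1 was left out and -0.26 when replicate 3 was. DESeq2 called 1 of the 44, Cdkn2c, which encodes p18, an INK4 inhibitor of Cdk4 and Cdk6. The Cdkn2c levels were 11.7 and 10.9 CPM in Maf-KO gut, 32.1 and 18.9 CPM in WT gut, 15.2, 15.2 and 12.0 CPM in Maf-KO spleen and 16.4, 16.4 and 13.6 CPM in WT spleen. Both Maf-KO gut libraries lay below both WT gut libraries, and the WT gut libraries differed from each other. Markers of some other cells differed between these gut libraries too. The 5 pancreatic acinar markers summed to 1.31 and 2.24 CPM in Maf-KO gut, against 108 and 19.1 CPM in WT gut, and the 5 plasma cell markers to 3398 and 1133 CPM in Maf-KO gut, against 6414 and 2042 CPM in WT gut. Both sums were highest in WT gut replicate 1, as Cdkn2c was. The plasma cell sum, unlike Cdkn2c, was higher in Maf-KO gut replicate 2 than in WT gut replicate 3. Of the other lists of cell type markers, only the germinal centre B cell sum was also highest in WT gut replicate 1 (65.7 CPM). The epithelial sum (138 CPM) and the CD8 and NK cell sum (19.9 CPM) were lowest of the gut libraries there. The part of these cells in the Cdkn2c difference was not tested. The log2 fold change was -1.17 (SE 0.26, edgeR unadjusted p = 0.00108, adjusted p = 0.187), and the DESeq2 adjusted p was 0.0123. Without WT gut replicate 1 it was -0.74 (edgeR adjusted p = 0.752), and over the alternatives the adjusted p ranged from 0.0123 to 0.752.

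The other genes with the smallest unadjusted p in gut were E2f2, Mcm7 and Ccne2. E2f2 encodes an E2F factor that in mouse T cells is known to restrain entry into the cycle. For E2f2 the values were 15.7 and 18.5 CPM in Maf-KO gut and 10.8 and 12.0 CPM in WT gut, with 48.3, 53.3 and 60.4 CPM in Maf-KO spleen and 55.1, 70.0 and 43.5 CPM in WT spleen. Both Maf-KO gut libraries were above both WT gut libraries, with a log2 difference of 0.59 (SE 0.23, edgeR adjusted p = 0.571). Mcm7 is another helicase subunit. Mcm7 was at 75.5 and 69.6 CPM in Maf-KO gut and 50.2 and 58.1 CPM in WT gut, and at 80.7, 84.0 and 68.2 CPM in Maf-KO spleen and 78.6, 90.2 and 64.3 CPM in WT spleen. Its log2 difference in gut was 0.42 (SE 0.17, edgeR adjusted p = 0.579), again without overlap. Ccne2 encodes cyclin E2. The Ccne2 levels were 5.14 and 5.19 CPM in Maf-KO gut, 10.3 and 7.57 CPM in WT gut, 6.51, 6.83 and 3.02 CPM in Maf-KO spleen and 5.07, 5.47 and 3.32 CPM in WT spleen. Its Maf-KO gut libraries were below the WT gut libraries, with a log2 difference of -0.79 (SE 0.40, edgeR adjusted p = 0.664). The Mcm7 and Ccne2 gene models overlap a neighbour (Ap4m1 and Ints8), and the labels do not state the strand setting of the counts.

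By role, the gut fold changes of genotype were on both sides of 0. The 3 transcription factors had log2 differences of 0.32 to 0.59, the 4 inhibitors of -1.17 to -0.19, and the 6 mitotic kinases and checkpoint genes of -0.38 to 0.19. Mki67 differed by 0.02 (SE 0.31), which leaves room for changes larger than that SE either way. Of the 44, 5 were higher and 5 lower in Maf-KO gut without overlap between the 2 libraries of each genotype, and 34 overlapped. Over all genes tested, 36.2% did not overlap in gut, so the 10 of 44 lie below that share.

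In spleen, no cycle gene passed the test for genotype either, and none had an unadjusted p under 0.05, as 2.85% of all genes had. The edgeR test called 0 of 44, where 0.0151% of all genes were called, and DESeq2 called 0 of 44 as well. The median log2 fold change was -0.01, both for the 44 and for all genes. With 1 spleen library left out, the median of the 44 ran from -0.19 (without WT spleen replicate 3) to 0.15 (without Maf-KO spleen replicate 3). All 44 genes overlapped between Maf-KO spleen and WT spleen, where 7.51% of all genes tested did not. Cdkn2d, which encodes the INK4 inhibitor p19, had the smallest unadjusted p. For Cdkn2d the values were 46.5 and 71.3 CPM in Maf-KO gut and 71.7 and 62.5 CPM in WT gut, with 54.6, 61.2 and 81.4 CPM in Maf-KO spleen and 83.1, 113 and 73.4 CPM in WT spleen. Its log2 difference between Maf-KO and WT spleen was -0.45 (SE 0.21, edgeR unadjusted p = 0.0620, adjusted p = 0.999). The log2 differences of Cdkn1b, Cdk6 and Ccnd2, next in order, were -0.23 (SE 0.16), -0.22 (SE 0.17) and 0.19 (SE 0.17).

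Whether the genotype effect differed between gut and spleen was tested as an interaction. EdgeR called 0 of 44 and 0% of all genes, with 2 of the 44 and 422 of all 13214 genes at an unadjusted p under 0.05, and DESeq2 called 0 of the 44. The 2 were Cdkn2c, with a log2 difference of effects (gut minus spleen) of -1.04 (SE 0.33, edgeR unadjusted p = 0.0104, adjusted p = 0.9999), and E2f2, with 0.64 (SE 0.29, unadjusted p = 0.0494, adjusted p = 0.9999).

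**Figure D3:**
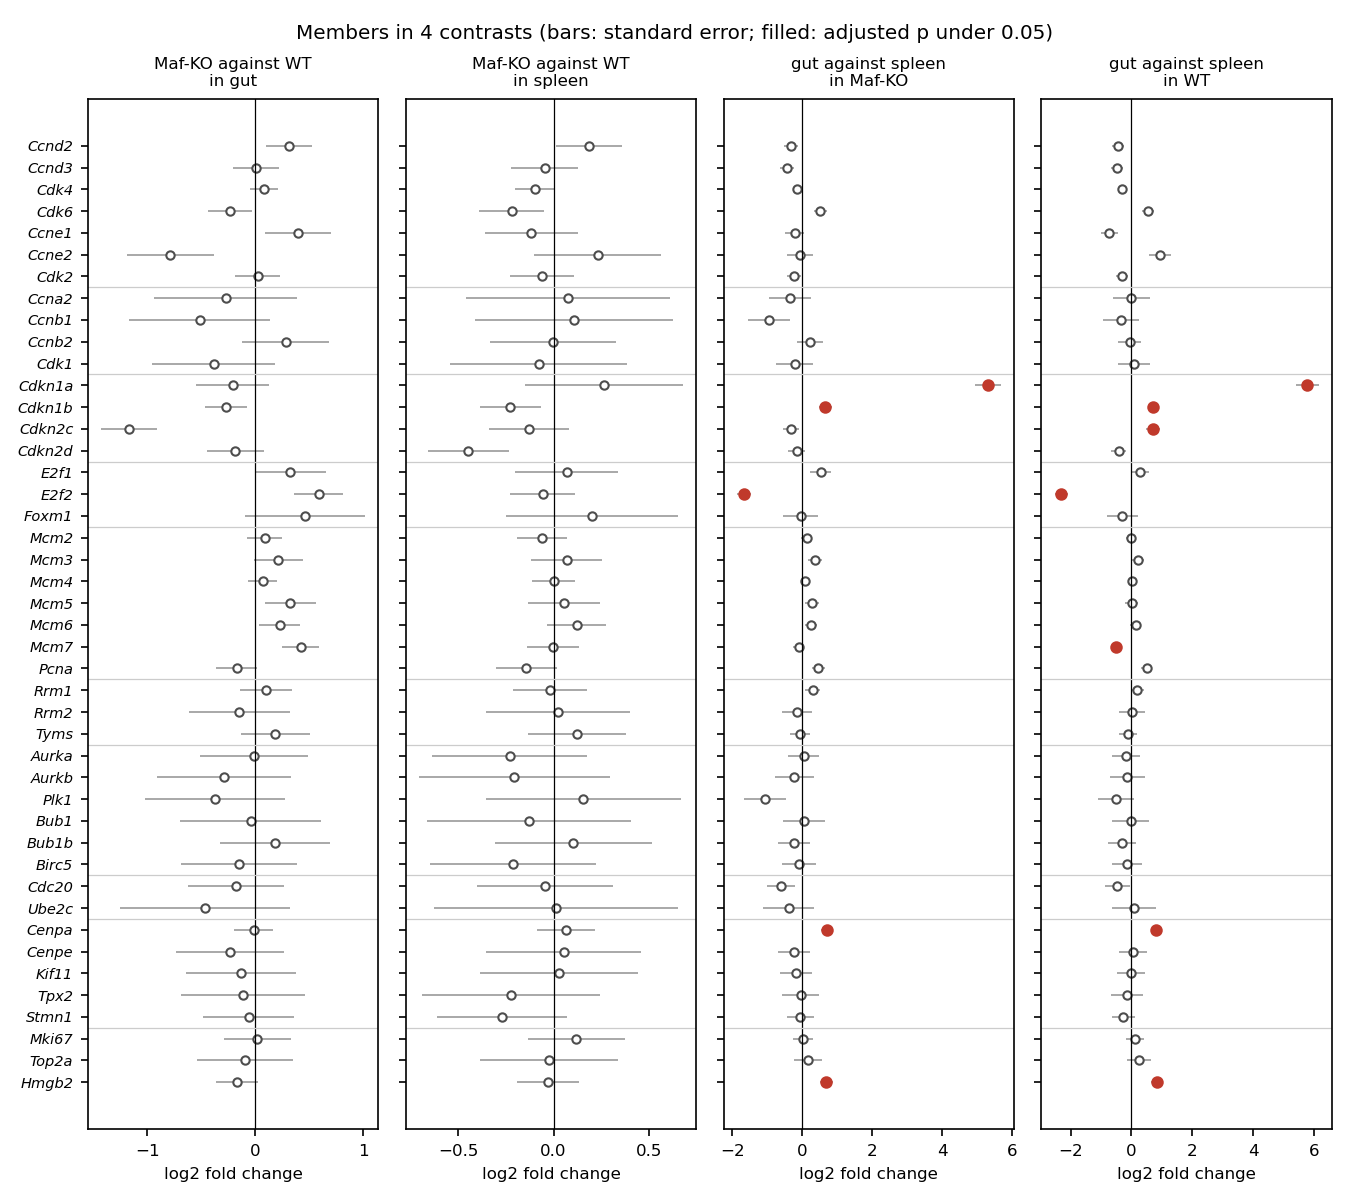
Log2 fold change of each of the 44 genes (rows, by role) in 4 comparisons, with bars of 1 standard error and filled red points at an adjusted p under 0.05 (edgeR). Each panel has its own x axis. No point is filled in the genotype panels. In the tissue panels Cdkn1a lies at 5.30 in Maf-KO and 5.78 in WT, and E2f2 at -1.66 in Maf-KO and -2.30 in WT.

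The tissue comparison asks which cycle genes differ between gut Tregs and spleen Tregs. In Maf-KO, 5 of the 44 genes (11.4%) were called by edgeR, 4 higher and 1 lower in gut, where 28.6% of all genes were called, 14.4% higher and 14.1% lower. In WT, 7 of the 44 (15.9%) were called, 5 higher and 2 lower, where 28% of all genes were called, 14.7% higher and 13.3% lower. Both shares of the 44 stand below those of all genes, which is given as a description without a test. Cdkn1a, Cdkn1b, Cenpa and Hmgb2 were higher and E2f2 lower in gut in both genotypes, which share no libraries. In WT, Cdkn2c was also higher and Mcm7 lower.

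Cdkn1a encodes p21, an inhibitor of cyclin-CDK complexes and a textbook target of p53. It lies at chr17:29090979-29100722 (RefSeq, GRCm38.p6). Cdkn1a was at 129 and 143 CPM in Maf-KO gut and 145 and 170.1 CPM in WT gut, and at 3.80, 5.18 and 1.46 CPM in Maf-KO spleen and 2.49, 1.85 and 4.37 CPM in WT spleen. Every gut library was above every spleen library, and the spleen libraries rested on 15 to 47 counts. The log2 fold change of gut against spleen was 5.30 (SE 0.37, 39.5-fold, edgeR adjusted p = 1.018e-05) in Maf-KO and 5.78 (SE 0.38, 54.9-fold, edgeR adjusted p = 6.738e-06) in WT. It was called under all 20 alternatives in both genotypes.

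Between tissues, genes of the immediate-early and heat shock response differed in the same direction as Cdkn1a. A list of 10 such genes was chosen after the values were seen, so its share is a description and not a test. Of all genes tested, 14.4% in Maf-KO and 14.7% in WT were called higher in gut, against 9 of these 10 in each genotype. Their summed level was 14941 to 19690 CPM in Maf-KO gut and 18430 to 36699 CPM in WT gut. In spleen it was 1652 to 2217 CPM in Maf-KO and 1787 to 3330 CPM in WT. Within WT gut the library with the higher sum had the higher Cdkn1a level, and within Maf-KO gut the lower. Of the spleen libraries, replicate 3 had the highest sum and the lowest Cdkn1a level in Maf-KO, and the reverse in WT. Of 15 p53 target genes tested, also listed after the fact, 6 were called higher and 2 lower in Maf-KO and 6 higher and 1 lower in WT. Of all genes, 14.1% in Maf-KO and 13.3% in WT were called lower. The median log2 fold change of the 15 was 0.02 in Maf-KO and 0.30 in WT, with 8 above 0 in Maf-KO and 10 in WT. Gadd45b (4.77 in Maf-KO, 4.65 in WT), Pmaip1 (3.69 and 3.93) and Plk2 (3.77 and 2.89) had higher log2 levels in gut. Trp53 itself, which is on the list, was lower (-0.64 and -0.74), and Phlda3 had the lowest log2 fold change of the list (-1.14 and -0.90). Markers of other cells differed between the tissues as well. Plasma cell markers were called higher in gut for 4 of 5 genes in Maf-KO and 5 of 5 in WT, with sums of 1133 to 3398 CPM in Maf-KO gut and 2042 to 6414 CPM in WT gut, against 78.5 to 119 CPM in Maf-KO spleen and 52.8 to 125 CPM in WT spleen. Epithelial markers summed to 145 to 155 CPM in Maf-KO gut and 138 to 173 CPM in WT gut, against 32.3 to 67.9 CPM in Maf-KO spleen and 36.2 to 61.1 CPM in WT spleen. In each library Jchain made up most of the plasma cell sum and Epcam most of the epithelial sum. Jchain was at 3340 and 1112 CPM in Maf-KO gut and 6325 and 2008 CPM in WT gut. Epcam was at 128 and 119 CPM in Maf-KO gut and 124 and 167 CPM in WT gut. The epithelial genes Krt8 and Krt19 were at 0 in WT gut replicate 3 and at 3.11 CPM or less in the other gut libraries. None of these markers was at 0 in every library. The part of these genes and cells in the Cdkn1a difference was not tested.

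E2f2 had the reverse pattern. It lies at chr4:136172274-136196057, and its values in every library are given above. All 4 gut libraries (10.8 to 18.5 CPM) were below all 6 spleen libraries (43.5 to 70.0 CPM). The log2 fold change of gut against spleen was -1.66 (SE 0.21, edgeR adjusted p = 0.000353) in Maf-KO and -2.30 (SE 0.22, edgeR adjusted p = 5.949e-05) in WT, and all 20 alternatives called it in both. B cell markers were lower in gut too, with 4 of 6 called in each genotype. They summed to 48.6 to 75.4 CPM in Maf-KO gut and 57.1 to 64.3 CPM in WT gut, against 120 to 359 CPM in Maf-KO spleen and 177 to 258 CPM in WT spleen. Their part in the E2f2 difference was not tested.

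**Figure D4:**
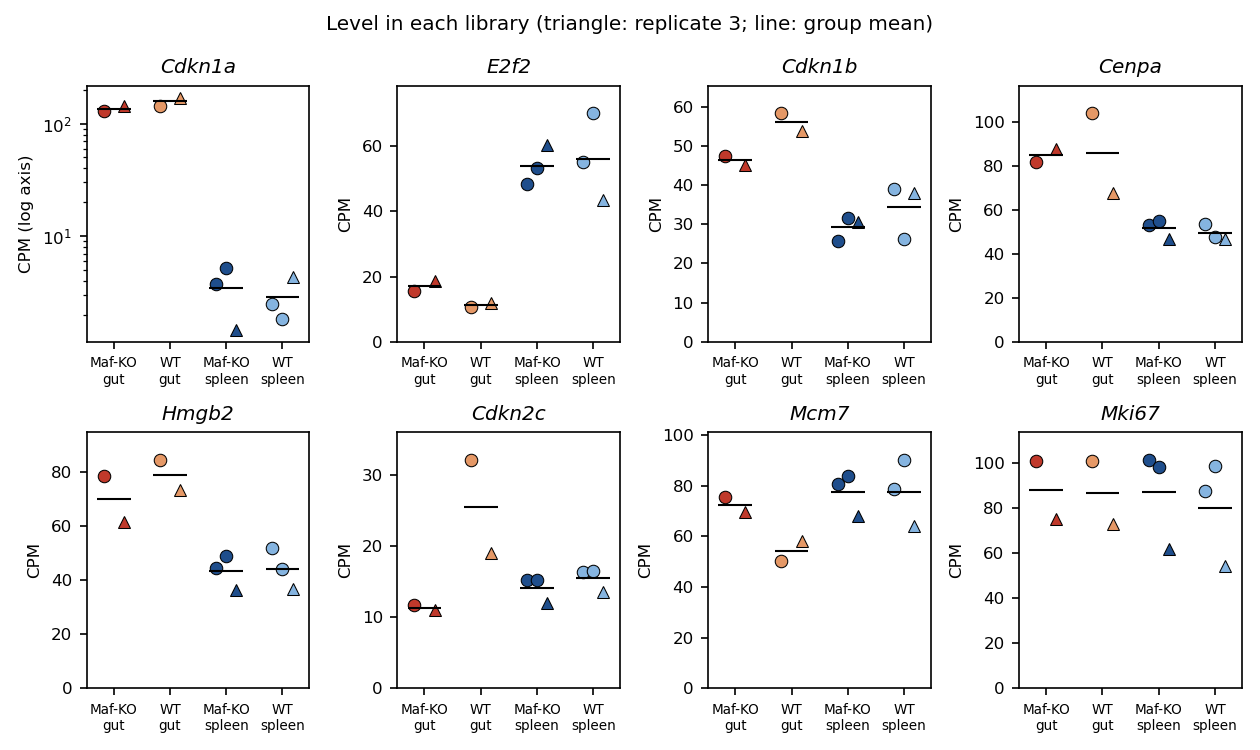
CPM of 8 genes in each library by group; points are libraries, triangles mark replicate 3, lines are group means, and the Cdkn1a axis is logarithmic. Cdkn1a separates gut (128.6 to 170.1 CPM) from spleen (1.46 to 5.18 CPM) and E2f2 does so in the other direction, while Mki67 overlaps across all groups with replicate 3 lowest in each.

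The other called genes differed by less than 2-fold. Cdkn1b (chr6:134920401-134925525) encodes the inhibitor p27, which holds Cdk2 inactive in resting cells. The Cdkn1b levels were 47.5 and 45.2 CPM in Maf-KO gut, 58.3 and 53.7 CPM in WT gut, 25.7, 31.5 and 30.7 CPM in Maf-KO spleen and 39.0, 26.2 and 37.9 CPM in WT spleen. All gut libraries were above all spleen libraries, by a log2 fold change of 0.66 (SE 0.18, edgeR adjusted p = 0.0190) in Maf-KO and 0.71 (SE 0.17, adjusted p = 0.0136) in WT. Cenpa (chr5:30666877-30674837) encodes the histone H3 variant of centromeres. For Cenpa the values were 81.9 and 87.9 CPM in Maf-KO gut and 104 and 67.8 CPM in WT gut, with 53.4, 54.8 and 46.9 CPM in Maf-KO spleen and 53.7, 47.8 and 46.7 CPM in WT spleen. Gut lay above spleen here too, by 0.72 (SE 0.16, edgeR adjusted p = 0.00972) in Maf-KO and 0.80 (SE 0.17, adjusted p = 0.00575) in WT. Hmgb2 (chr8:57511843-57515999) encodes a DNA-bending chromatin protein that is abundant in dividing cells. Hmgb2 was at 78.4 and 61.4 CPM in Maf-KO gut and 84.3 and 73.1 CPM in WT gut, and at 44.5, 49.0 and 36.4 CPM in Maf-KO spleen and 51.7, 44.1 and 36.7 CPM in WT spleen. The gut libraries were again the higher ones, by 0.69 (SE 0.18, edgeR adjusted p = 0.0170) in Maf-KO and 0.83 (SE 0.18, adjusted p = 0.00681) in WT.

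In WT, Cdkn2c (chr4:109660876-109666756) was higher in gut by 0.72 (SE 0.23, edgeR adjusted p = 0.0404) and Mcm7 (chr5:138164583-138172111) was lower by a log2 fold change of -0.52 (SE 0.16, adjusted p = 0.0324). Their fold changes in Maf-KO were -0.32 and -0.10, neither of them called. Of the 5 pancreatic acinar markers, 0 were called higher in gut in Maf-KO and 5 in WT. Cdkn2c was called under 8 of 20 alternatives and was at 0.29 (edgeR adjusted p = 0.444) without WT gut replicate 1. Mcm7 was called under 14 of 20. Without WT gut replicate 1, Cenpa (0.45, edgeR adjusted p = 0.0640), Hmgb2 (0.72, adjusted p = 0.0609), Cdkn1b (0.64, adjusted p = 0.0832) and Mcm7 (-0.42, adjusted p = 0.199) were not called in WT either. In Maf-KO, Cdkn1b and Hmgb2 were not called without Maf-KO gut replicate 2 (0.62, adjusted p = 0.0930, and 0.50, adjusted p = 0.148), nor Cdkn1b and Cenpa without replicate 3 (0.70, adjusted p = 0.0701, and 0.67, adjusted p = 0.0698). Left out in turn, spleen replicates also ended calls. Without Maf-KO spleen replicate 1, Cdkn1b was at an adjusted p of 0.0610, and without replicate 3 Hmgb2 was at 0.0555.

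Library scaling bears on these smaller differences. With library totals alone, without TMM, the median of all genes moved to -0.28 in Maf-KO and -0.30 in WT. The share of called genes that were higher in gut was then 25.1% in Maf-KO and 25.2% in WT, and with TMM it was 50.5% in Maf-KO and 52.4% in WT. Without TMM, Cdkn1b was at 0.40 in Maf-KO (edgeR adjusted p = 0.112) and 0.44 in WT (adjusted p = 0.0837). Cenpa (0.46, adjusted p = 0.0662) and Hmgb2 (0.43, adjusted p = 0.0976) were not called in Maf-KO, nor was Cdkn2c in WT (0.46, adjusted p = 0.154). Directions did not change for the called genes. With the title number that pairs gut with spleen libraries as a random effect, 12 of the 44 were called in Maf-KO and 13 in WT (limma-voom). Of all 13214 genes, 5778 were called in Maf-KO and 5498 in WT with that block. Without it, limma-voom called 5 of the 44 in Maf-KO and 7 in WT, among them Cdk6 in WT (0.54). It then called 3692 of all genes in Maf-KO and 3503 in WT. Of the 44, the blocked calls include all that edgeR called. Pcna (0.49 in Maf-KO, 0.47 in WT), Ccnd3 (-0.46 and -0.49) and Ccnd2 (-0.36 and -0.42) were called by limma-voom with the block in both genotypes and without it in neither.

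The mitotic genes other than Cenpa did not pass the edgeR test between tissues. In Maf-KO, Plk1 was called (-0.92) with the replicate number as a block, and Ccnb1 (-1.07) without the replicate 3 libraries. In Maf-KO, the 6 mitotic kinases and checkpoint genes had log2 fold changes of -1.05 (Plk1) to 0.05 (Bub1), and in WT of -0.52 (Plk1) to -0.03 (Bub1). Cyclins A2, B1 and B2 with Cdk1 ranged from -0.95 to 0.22 in Maf-KO and from -0.33 to 0.09 in WT. Mki67 differed by 0.02 in Maf-KO and 0.11 in WT. E2f1, an activator of replication genes, was not called by the main edgeR fit. In Maf-KO, limma-voom with the title number as a random effect called it (0.60). The E2f1 levels were 12.3 and 10.1 CPM in Maf-KO gut, 10.7 and 7.22 CPM in WT gut, 9.66, 7.16 and 6.53 CPM in Maf-KO spleen and 9.07, 7.93 and 5.22 CPM in WT spleen. Its gut libraries were above all spleen libraries in Maf-KO and overlapped them in WT. Of the 7 G1 and S cyclins and kinases, 1 had an unadjusted p under 0.05 in Maf-KO and 6 in WT. Of all genes, 39.8% in Maf-KO and 39.9% in WT had one. None of the 7 was called by the main edgeR fit, with TMM and no block. The calls without TMM are given above. With the replicate number as a block, edgeR called Ccnd3 (-0.56) and Ccnd2 (-0.43) in Maf-KO and Ccne2 (1.06) in WT. With DESeq2 size factors it called Cdk6 (0.56) in WT. Other alternatives called some of the 7 too.

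Other lists of cycle genes give the surroundings of the 44. By edgeR, genotype called 0 genes of the 5 lists in gut, in spleen and in the interaction, with 1 gene in gut, 0 in spleen and 2 in the interaction at an unadjusted p under 0.05. Between tissues, 28.6% of all genes were called in Maf-KO and 28% in WT. Of 38 licensing and synthesis genes, 3 were called in Maf-KO (Dbf4 1.05, Orc1 1.41 and Lig1, a DNA ligase, 0.83). In WT 1 was called (Lig1, 1.03), and all were higher in gut on the log2 scale. Of 48 other mitosis genes, 2 were called higher and 2 lower in Maf-KO, and 1 higher and 2 lower in WT. Pttg1, the securin that holds back separase, was higher (0.59 in Maf-KO, 0.61 in WT), and the condensin gene Smc4 (-0.62 and -0.58) and the checkpoint gene Bub3 (-0.47 and -0.45) were lower. Of 20 other cyclins, CDKs and regulators tested, 4 were called lower in Maf-KO, and 3 lower and 1 higher in WT. The phosphatase gene Cdc25b (-1.32 in Maf-KO, -1.71 in WT) and Skp2 (-1.48 and -1.40), whose product marks p27 for degradation, were lower in gut. Of 17 Rb, E2F, MuvB, Myb and Myc genes tested, 2 were higher and 2 lower in Maf-KO, and 3 higher and 1 lower in WT. They include Lin54, the DNA-binding subunit of MuvB (2.09 and 1.91), and Rb1 (0.79 and 0.87), both higher in gut.

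Of 10 quiescence-associated genes, 6 were called higher and 2 lower in gut in Maf-KO, and 5 higher and 3 lower in WT. Of all genes, 14.4% were called higher and 14.1% lower in Maf-KO, and 14.7% higher and 13.3% lower in WT. Klf4, a factor that restrains T cell division, was higher in gut by 5.49 (SE 0.55) in Maf-KO and 5.10 (SE 0.54) in WT on the log2 scale. Tob1, an antiproliferative gene, was higher by 1.58 and 1.61, and Slfn2, needed for T cell quiescence in mice, was lower by a log2 fold change of -1.27 and -1.28 (edgeR adjusted p = 7.855e-05 in Maf-KO, 6.67e-05 in WT). The summed level of the 10 genes was 5921 to 6081 CPM in Maf-KO gut and 5756 to 6180 CPM in WT gut, against 3329 to 4109 CPM in Maf-KO spleen and 3615 to 3942 CPM in WT spleen. The immediate-early and heat shock values above apply beside these genes as well, and their part was not tested.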

How the data were processed

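RNA of sorted Tregs was sequenced in 10 libraries in 4 groups, taken from the sample labels. The authors deposited raw read counts per Entrez gene and log2 FPKM values of 12252 genes per library. Per the submitters' processing notes, Subread, featureCounts and limma were used with GRCm38 and mm10. No source used here states the strand setting, versions or annotation. The labels do not say that libraries come from separate animals, so p-values measure the spread between these samples, which may be technical.

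The tests on counts used edgeR 4.0.16 (R 4.3.3). The filter was filterByExpr (minimum count 10, minimum total 15), which left 13214. TMM factors scaled the libraries, and 1 quasi-likelihood model with 4 group coefficients was fitted to all 10. Each contrast was tested two-sided, with Benjamini-Hochberg adjustment across the 13214 genes, and called under 0.05. The SE is the fold change divided by the square root of F. The table has 852 entries without a symbol, which stayed in the totals. Fits were tested on simulated data.

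The 44 genes, the lists and the tests were chosen with earlier results of these data known. Values in every library are given for 22 genes named in the plan and for genes called, or of smallest p where none was. Gene positions and promoters are RefSeq's (GRCm38.p6). Overlapping gene models were found for 11 of the 44 genes.

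Alternatives were DESeq2 1.42.0, its size factors, no filter, limma 3.58.1 (voom, and trend on the log2 FPKM values), groups alone, 2 replicate blocks and leaving out each library. Fits without TMM, and without the replicate 3 libraries, were added after the data were seen. Libraries of gut and spleen that share a title number had correlated deviations from their group means (r = 0.38, 0.36, 0.31 and 0.26 over 13214 genes). Each gut group has 2 libraries, whose deviations are mirror images, so the 4 values are not separate results. The titles pair gut with spleen by number, but what the number stands for is not stated. Equal replicate numbers did not pair the genotypes in spleen (r = -0.04, -0.18 and -0.35 over 13214 genes), although over the 44 genes r was 0.55, 0.40 and 0.63.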

Additional observations from a re-analysis of the deposited data

How the results depend on the processing

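Over 20 alternatives per comparison (19 for the interaction), 437 of 476 results of single genes kept their direction and side of the threshold, 38 lost the call and 1 gained it. None reversed. Of the 44 genes, 0 were called for genotype in gut under every alternative but DESeq2, which called 1, and 0 in spleen and in the interaction under all. In gut against spleen, the number called was 12 in Maf-KO and 13 in WT with the replicate block by title number as a random effect, 10 in Maf-KO with the replicate block by replicate number and 11 in WT without TMM. Leaving out 1 library gave 3 to 7 in Maf-KO and 3 to 8 in WT. The lowest counts, of 3, came without either gut library in Maf-KO and without WT gut replicate 1 in WT. The cause was not tested.

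Over all genes, 20 called for genotype in gut became 74 with no filter, 112 by DESeq2, 33 by limma-voom, 12 with the groups alone, 9 and 42 with the replicate blocks by replicate number and title number, and 8 without the replicate 3 libraries. Leaving out 1 library gave 4 to 22. The 2 called in spleen became 12 with no filter, 19 by DESeq2, 5 on log2 FPKM, 1 with the groups alone, 0 by limma-voom, with the title block and without the replicate 3 libraries, and 2 to 9 with 1 library left out. DESeq2 called 8 genes in the interaction. In gut against spleen in WT, 5498 genes were called with the title block and 5265 without TMM. The block by replicate number called 3471 in Maf-KO. Between tissues, 3774 in Maf-KO became 1512 and 3703 in WT became 2055 without the replicate 3 libraries, and 5778 in Maf-KO with the title block. With 1 library left out they were 2118 to 3785 in Maf-KO and 2183 to 3597 in WT. Where that left 1 gut library in a group, it was assumed to vary like the others. Genes with few counts, such as Cdkn1a in spleen, are limited by depth.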
